A study of Mus musculus with 17 samples.

Results

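Rab proteins are small GTPases that mark the membranes of the endocytic and secretory routes. The genes described here are those whose official mouse symbol is Rab, a number and at most 1 letter, which leaves out Rab-like and Rab-interacting genes. Of the 17097 genes that the array measured with probe sets of a single symbol, 55 met this rule, through 99 probe sets. Where a gene had several probe sets, the one whose mean over the 17 arrays was highest was used. By their textbook sites of action they fell into lists of 7 early endosome genes, 11 genes of recycling and the plasma membrane, 11 of the late endosome, lysosome and lysosome-related organelles, 8 of regulated secretion, 13 of the endoplasmic reticulum and Golgi, and 5 others.

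The arrays held RNA of flow-sorted cells in 6 groups, from mice aged 6 to 10 weeks. Spleens of wild-type mice gave 3 pools of macrophages, gated as CD11b+ and M-CSF receptor+ cells without CD11c, and 3 pools of granulocytes, gated as CD11b+ Ly6C+ cells without CD11c or the M-CSF receptor. Bone marrow gave 11 pools of myelo-dendritic progenitors (MDPs), taken as CD117+ M-CSF receptor+ cells that lacked lineage markers, Sca1 and CD127. IRF8 is the transcription factor the study removed or reported on. The MDPs comprised 3 wild-type pools, 3 pools labelled as IRF8 knockout (here knockout-labelled), 3 pools from reporter mice with VENUS expression and 2 pools without it. The genotype field reads IRF8-deficient for the knockout-labelled pools and for both VENUS groups, so the last are named by VENUS expression alone. Pools of spleen cells, wild-type and knockout-labelled MDPs came from 5 mice each, and the design text gives no such number for the VENUS pools. The deposited values are log2 expression levels of probe sets, and each value below is such a level in 1 pool, a mean of pools, or a difference between means.

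Array medians ran from 4.33 to 4.48 and lower quartiles from 3.18 to 3.42, and levels near or below that quartile are treated as close to background and given no fold. Irf8 itself stood at 10.19 to 10.56 in wild-type and 10.18 to 10.42 in knockout-labelled MDPs, so its level does not separate these labels. No source used here says whether its probe set lies in the removed sequence. It stood at 10.72 to 11.10 in VENUS-positive and at 5.49 and 6.25 in VENUS-negative MDPs. Wild-type MDP pool 3 stood apart from the other two wild-type pools in lists of markers of other cells. Its mean level of 7 measured granulocyte markers was 9.32, against 4.96 and 5.20, and that of 6 red cell markers was 9.93, against 6.83 and 7.15. For 5 platelet and megakaryocyte markers wild-type pools 2 and 3 were both raised, at 5.17 and 5.54, against 3.78 in pool 1. VENUS-negative MDPs had the M-CSF receptor gene Csf1r at 5.09 and 4.83, against 7.63 to 8.05 in VENUS-positive MDPs, although both were gated on that receptor. Csf1r stood at 7.16 to 8.56 in the granulocytes, gated as lacking it. Itgax, the gene of CD11c, stood at 8.15 to 8.57 in macrophages and 6.94 to 8.37 in granulocytes, both gated as lacking CD11c. In sorted bulk RNA a lower share of cells that make a transcript and less transcript per cell cannot be told apart.

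A Rab protein switches between a GDP-bound form held in the cytosol by an escort protein and a GTP-bound form on a membrane, where it recruits effectors such as motor adaptors and tethers. Exchange factors turn it on, and GTPase-activating proteins turn it off. In myeloid cells Rab proteins govern phagosome maturation, antigen transport, lysosome-related organelles and the release of granules. RefSeq promoter windows of GRCm38.p6, from 250 bases before to 50 bases after a start site, were found for 44 of the 55 genes. Rab38, Rab4a, Rab37, Rab7b and Rab44 were among the genes without a window, so their promoters were not searched. The windows shown belong to 3 of the 4 Rab genes that fell in the MDPs without VENUS, and to Rab19. Rab19 was higher in macrophages than in all other groups. Letters were searched on both strands for 5 motifs: the ETS and IRF composite (GGAA, any 2 bases, GAAA), the interferon response core (GAAA, any 2 bases, GAAA), the PU.1 site GAGGAAGT, the GATA site AGATAA and the lysosomal E-box TCACGTGA. Capitals mark a match. Rab32, on the minus strand at chr10:10558158-10558457, held the PU.1 letters 43 bases before the start site. Rab31, minus strand at chr17:65772703-65773002, and both starts of Rab27a, plus strand at chr9:73044560-73044859 and chr9:73063898-73064197, held none of these letters. Rab19, plus strand at chr6:39381103-39381402, held a pair of overlapping matches to the interferon response core on the reverse strand, beginning 10 and 4 bases before the start site.
Rab32: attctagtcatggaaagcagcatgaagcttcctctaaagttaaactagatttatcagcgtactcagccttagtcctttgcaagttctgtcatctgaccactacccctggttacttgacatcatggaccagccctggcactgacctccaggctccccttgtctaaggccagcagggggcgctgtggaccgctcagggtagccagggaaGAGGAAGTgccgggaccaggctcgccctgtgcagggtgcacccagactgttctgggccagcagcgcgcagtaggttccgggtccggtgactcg
Rab31: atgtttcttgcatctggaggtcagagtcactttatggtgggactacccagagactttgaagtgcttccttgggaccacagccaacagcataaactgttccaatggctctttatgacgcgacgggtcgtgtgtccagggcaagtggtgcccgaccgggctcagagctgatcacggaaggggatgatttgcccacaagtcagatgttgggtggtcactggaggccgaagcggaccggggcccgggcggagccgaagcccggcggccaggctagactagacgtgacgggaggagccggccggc
Rab27a, first start: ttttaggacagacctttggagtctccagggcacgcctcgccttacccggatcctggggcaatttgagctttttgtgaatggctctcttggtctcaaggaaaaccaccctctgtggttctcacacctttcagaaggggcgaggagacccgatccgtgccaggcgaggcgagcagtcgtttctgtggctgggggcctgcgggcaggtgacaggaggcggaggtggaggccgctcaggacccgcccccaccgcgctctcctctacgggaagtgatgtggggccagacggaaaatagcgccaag
Rab27a, second start: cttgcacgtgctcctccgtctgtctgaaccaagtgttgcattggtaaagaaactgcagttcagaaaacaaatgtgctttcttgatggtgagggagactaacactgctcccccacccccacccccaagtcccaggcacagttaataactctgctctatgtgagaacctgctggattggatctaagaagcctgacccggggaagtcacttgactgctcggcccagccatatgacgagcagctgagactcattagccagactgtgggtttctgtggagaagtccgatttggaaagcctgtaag
Rab19: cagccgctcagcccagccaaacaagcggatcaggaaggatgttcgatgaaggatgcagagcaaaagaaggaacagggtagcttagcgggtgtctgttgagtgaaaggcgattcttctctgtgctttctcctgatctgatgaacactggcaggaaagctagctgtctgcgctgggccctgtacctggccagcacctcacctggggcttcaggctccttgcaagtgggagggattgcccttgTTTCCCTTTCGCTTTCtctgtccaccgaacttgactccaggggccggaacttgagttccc
Of all 32851 promoter windows in the same table, 3.20% held the PU.1 letters and 3.44% the interferon response core. Among the Rab genes with a window, others with a match were Rab2b for the PU.1 site and Rab11b for the composite (2.72% of all windows). The GATA site (11.2%) was matched in Rab34 and Rab43, and the palindromic E-box (0.974%) in Rab5a, Rab21 and Rab24. A match describes the letters in a window and is no evidence of binding.

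Across the 6 groups, 36 of the 55 Rab genes differed, against 48.6% of all genes (limma moderated F test, adjusted p under 0.05). The adjustment was the Benjamini-Hochberg method over all genes. A level of log2 5 or more on at least 2 arrays was reached by 43 of the 55 Rab genes, and by 10141 of all 17097 genes. The shares over all genes, here and below, thus cover a larger part of low-signal genes than the Rab counts do. The 6 pairwise comparisons below share arrays, so calls in several of them are not independent, and calls per gene were not tallied over all genes. In these comparisons 15 Rab genes were called in none, 12 in 1, 17 in 2, 9 in 3 and 2 in 4. The last were Rab38, which works with Rab32 in building melanosomes and other lysosome-related organelles, and Rab27a, which docks secretory lysosomes and cytotoxic granules at the plasma membrane. Granulocytes held the highest group mean for 22 genes and macrophages for 14, while VENUS-negative MDPs held the lowest for 19. The same counts were not made over all genes, and VENUS-negative means rest on 2 pools, so these counts describe no trait particular to Rab genes. The widest range of group means was that of Rab4a, a Rab of fast endosomal recycling, at 5.34 log2 units from macrophages to VENUS-negative MDPs. Rab37, a Rab of mast cell granules, ranged over 4.01, Rab44, a large Rab of immune cells that also carries EF-hands, over 3.69, and Rab38 over 3.30. At the other end, Rab2a, which acts between endoplasmic reticulum and Golgi, ranged over 0.40 and was called in no comparison. All 6 group means lay above the highest array median for 35 genes, and 5 genes had every group mean below 3.42.

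**Figure D1:**
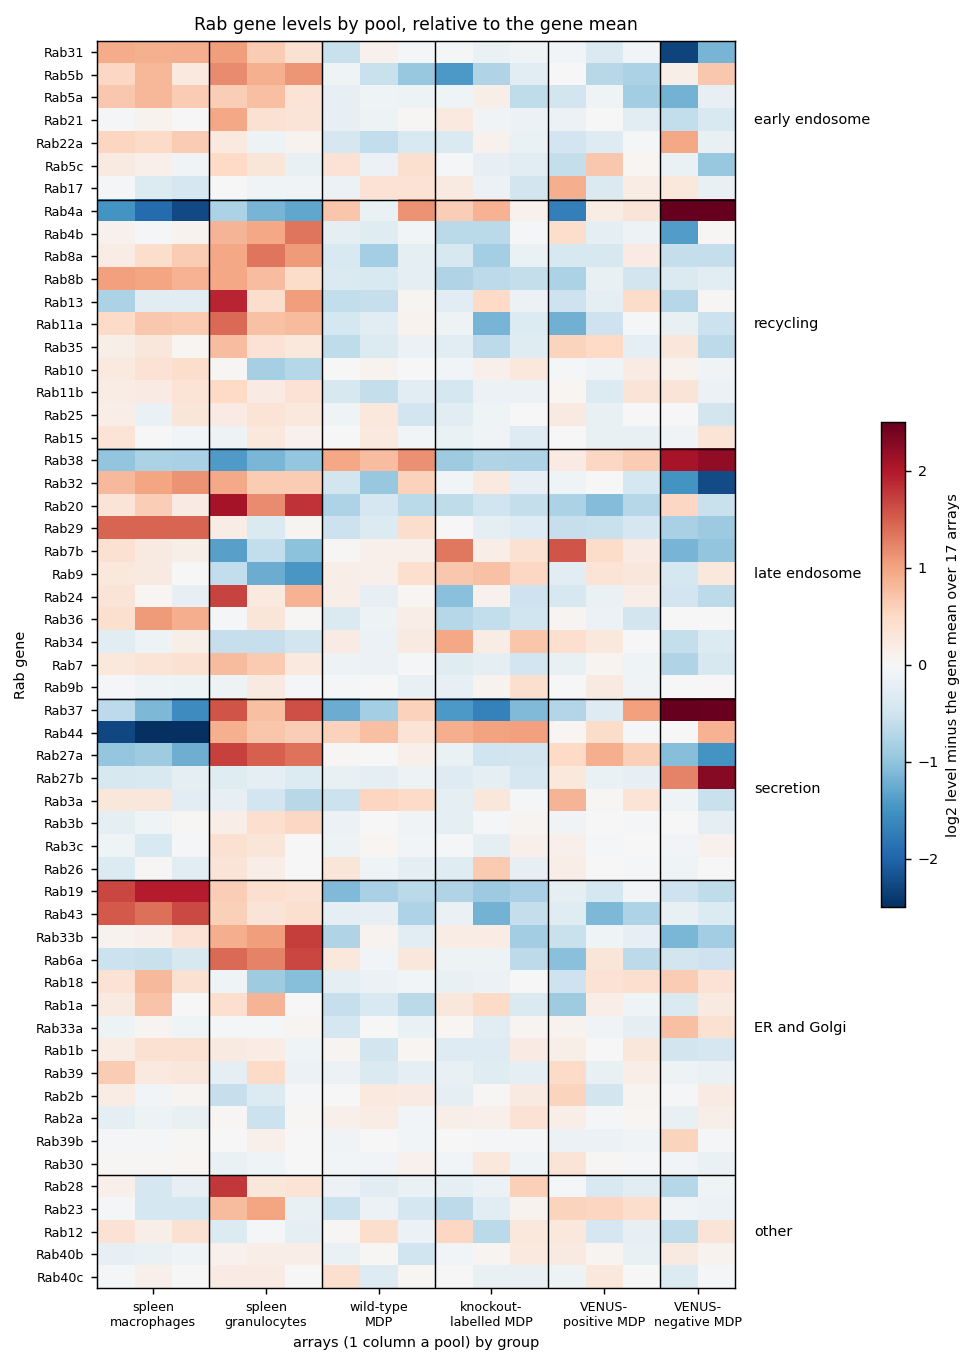
Log2 level of each of the 55 Rab genes in each of the 17 pools, minus the gene's mean over the pools (colour, cut at 2.5 in both directions by the scale); rows are grouped by role and columns by cell group. Rab4a, Rab37 and Rab38 were dark red in VENUS-negative MDPs, Rab44 was dark blue in macrophages, and Rab19, Rab43 and Rab29 were red in macrophages.

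Rab38 was the 1 Rab gene of 55 that differed between knockout-labelled and wild-type MDPs, in a comparison that called 0.907% of all genes, 0.456% higher and 0.450% lower. Its wild-type pools read 6.11, 5.91 and 6.29, and its knockout-labelled pools 4.26, 4.41 and 4.38. The groups did not overlap, and the knockout-labelled pools lay at the level of the spleen macrophages (4.17, 4.36 and 4.34). The mean fell by 1.76 (SE 0.15), or 3.38-fold, from 6.10 ± 0.19 (SD, n = 3) to 4.35 ± 0.08 (SD, n = 3), with limma's adjusted p = 3.24e-05. Without wild-type pool 3 the difference was -1.67 (adjusted p = 1.69e-04), and the call was kept whichever single pool of either group was left out. Among the MDP groups, red cell markers (6 of 8 measured) moved with Rab38 by group. Their mean levels were 4.28 to 4.56 in knockout-labelled and 6.83 to 9.93 in wild-type MDPs. They were 6.27 to 7.21 in VENUS-positive and 9.77 to 11.13 in VENUS-negative MDPs, where Rab38 was highest. Single pools did not follow this order. Wild-type pool 3 had these markers at 9.93 and Rab38 at 6.29, and VENUS-negative pool 2 had 9.77 and 7.37. The part of red cell markers in the Rab38 values was not tested. Over all 55 genes the median difference was 0.00, against 0.01 over all genes. A 95% interval that stayed within 2-fold in both directions was found for 48 of the 55, and for 13729 of all 17097 genes.

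The other Rab genes did not pass the test in this comparison, and 4 of them had an unadjusted p under 0.05. With Rab38 these made 5 of the 55 Rab genes, where 1482 of all 17097 genes had such a p in limma's test. Rab27a stood at 8.50, 8.48 and 8.61 in wild-type and at 8.30, 7.97 and 8.02 in knockout-labelled MDPs, a difference of -0.43 (SE 0.16, adjusted p = 0.367). Rab34, linked to lysosome positioning, differed by 0.51 (SE 0.19, adjusted p = 0.379), Rab36 by -0.50 (SE 0.19, adjusted p = 0.399) and Rab1a, of transport from endoplasmic reticulum to Golgi, by 0.68 (SE 0.31, adjusted p = 0.556). The largest difference besides Rab38 was that of Rab37, at -0.92 (SE 0.47, adjusted p = 0.656). Its wild-type pools read 4.36, 4.74 and 6.18, and its knockout-labelled pools 4.15, 3.89 and 4.49. The highest of these was wild-type pool 3, the pool with raised granulocyte and red cell markers. The part of those cells in the value was not tested.

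Between VENUS-negative and VENUS-positive MDPs, 9 of the 55 Rab genes differed, 5 higher and 4 lower, against 5.87% of all genes (2.85% higher and 3.02% lower). Higher in VENUS-negative MDPs were Rab4a, Rab37, Rab27b, Rab38 and Rab33a, and lower were Rab27a, Rab7b, Rab32 and Rab31. The median difference over the 55 genes was -0.10, against -0.01 over all genes. By role, 3 of 8 secretion genes (2 higher, 1 lower), 3 of 11 late endosome genes (1 higher, 2 lower), 1 of 11 recycling genes, 1 of 7 early endosome genes and 1 of 13 endoplasmic reticulum and Golgi genes were called. With only 2 VENUS-negative pools, the call of 5 of the 9 genes was lost in at least 1 fit that left out a single pool, while Rab4a, Rab27a, Rab27b and Rab38 kept theirs. The count was 5 without VENUS-negative pool 1 and 12 without VENUS-negative pool 2. The single calls of the early endosome list and of the endoplasmic reticulum and Golgi list were lost without VENUS-negative pool 1. Those lists and the recycling list, with 1 call each, had 2 calls each without VENUS-negative pool 2. The Golgi call was also lost without VENUS-positive pool 2 or 3.

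Rab38 rose here, opposite to its direction in the knockout-labelled pools. Its VENUS-positive pools read 5.36, 5.67 and 5.79, and its VENUS-negative pools 7.20 and 7.37, above every other pool of the study. The difference was 1.68 (SE 0.17, 3.20-fold, limma's adjusted p = 2.08e-05). Rab4a read 4.07, 5.97 and 6.11 in VENUS-positive and 9.07 and 9.39 in VENUS-negative MDPs. No other pool exceeded 6.91, and the difference was 3.85 (SE 0.51, 14.4-fold, limma's adjusted p = 2.20e-04). Its other probe set gave 2.64.

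Rab37 read 4.85, 5.26 and 6.62 in VENUS-positive and 8.31 and 8.06 in VENUS-negative MDPs, a difference of 2.61 (SE 0.53, 6.09-fold, limma's adjusted p = 0.00713). Its second probe set gave 2.73, and without VENUS-negative pool 1 the adjusted p was 0.0679. Rab27b, which acts in the release of mast cell and platelet granules, lay close to background in the other 15 pools and read 4.45 and 5.48 in VENUS-negative MDPs. The VENUS-positive pools were at 3.47, 3.04 and 2.99, the difference was 1.80 (SE 0.23, limma's adjusted p = 1.50e-04), and the other probe sets gave 1.30 and 2.48. This SE rests on the spread of all groups, and the SD of Rab27b was 0.73 in VENUS-negative but 0.05 in wild-type MDPs. In limma fits of both VENUS groups alone, with or without the pool number as a block, Rab27b lost the call (adjusted p up to 0.22). Rab33a, a Golgi Rab, was near background in both groups (means 3.33 and 2.68), differed by 0.64 (adjusted p = 0.035) and lost the call without VENUS-negative pool 1 (adjusted p = 0.334) or without VENUS-positive pool 2 or 3 (0.0778 and 0.104).

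Rab27a fell with the smallest adjusted p of the comparison. Its VENUS-positive pools read 8.97, 9.39 and 9.07 and its VENUS-negative pools 7.42 and 6.98, with no overlap. The difference was -1.94 (SE 0.18, 3.85-fold, limma's adjusted p = 9.99e-06), and its other 3 probe sets gave -1.67 to -1.27. In VENUS-negative MDPs the secretory Rabs therefore split, with Rab27a lower while Rab27b and Rab37 were higher.

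Rab32, the partner of Rab38 in lysosome-related organelles, read 6.86, 6.96 and 6.54 in VENUS-positive and 5.48 and 4.73 in VENUS-negative MDPs. It differed by -1.68 (SE 0.34, limma's adjusted p = 0.00697), and without VENUS-negative pool 2 by -1.31 (adjusted p = 0.105). Rab38 and Rab32 thus moved in opposite directions in this comparison. Rab31, which carries cargo from the trans-Golgi network to endosomes, read 8.28, 7.98 and 8.28 in VENUS-positive and 6.03 and 7.19 in VENUS-negative MDPs. It differed by -1.57 (SE 0.29, limma's adjusted p = 0.00323), and without VENUS-negative pool 1 by -0.99 (adjusted p = 0.0595). Rab7b, which takes part in transport from late endosomes to the Golgi, read 7.70, 6.59 and 6.34 against 4.98 and 5.15. Its difference was -1.81 (SE 0.37, limma's adjusted p = 0.00715), with an adjusted p of 0.0678 without VENUS-negative pool 1, and its other probe set gave -0.20.

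Markers of other cells moved with these genes. The mean level of 5 of 5 mast cell and basophil markers ran from 8.23 to 8.44 in VENUS-negative and from 4.62 to 4.69 in VENUS-positive MDPs. For 5 of 5 platelet and megakaryocyte markers the ranges were 6.36 to 6.62 and 3.78 to 3.93, and for 6 of 8 red cell markers 9.77 to 11.13 and 6.27 to 7.21. The mean of the 6 measured of 8 macrophage and monocyte markers went the other way, at 4.91 to 4.93 and 6.78 to 6.92. Of these Cd14 overlapped (4.07 and 4.16 against 3.54 to 4.36), and Adgre1 was near background in both groups (3.14 and 3.26 against 3.52 to 3.70). Among the red cell markers Hbb-b2 and Hba-a1 overlapped between both groups. The mast cell markers Cpa3 (8.16 and 8.70) and Ms4a2 (7.59 and 8.90) were near background in VENUS-positive MDPs (2.82 to 3.09 and 2.55 to 2.98). What part these cells have in the Rab differences was not tested.

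**Figure D2:**
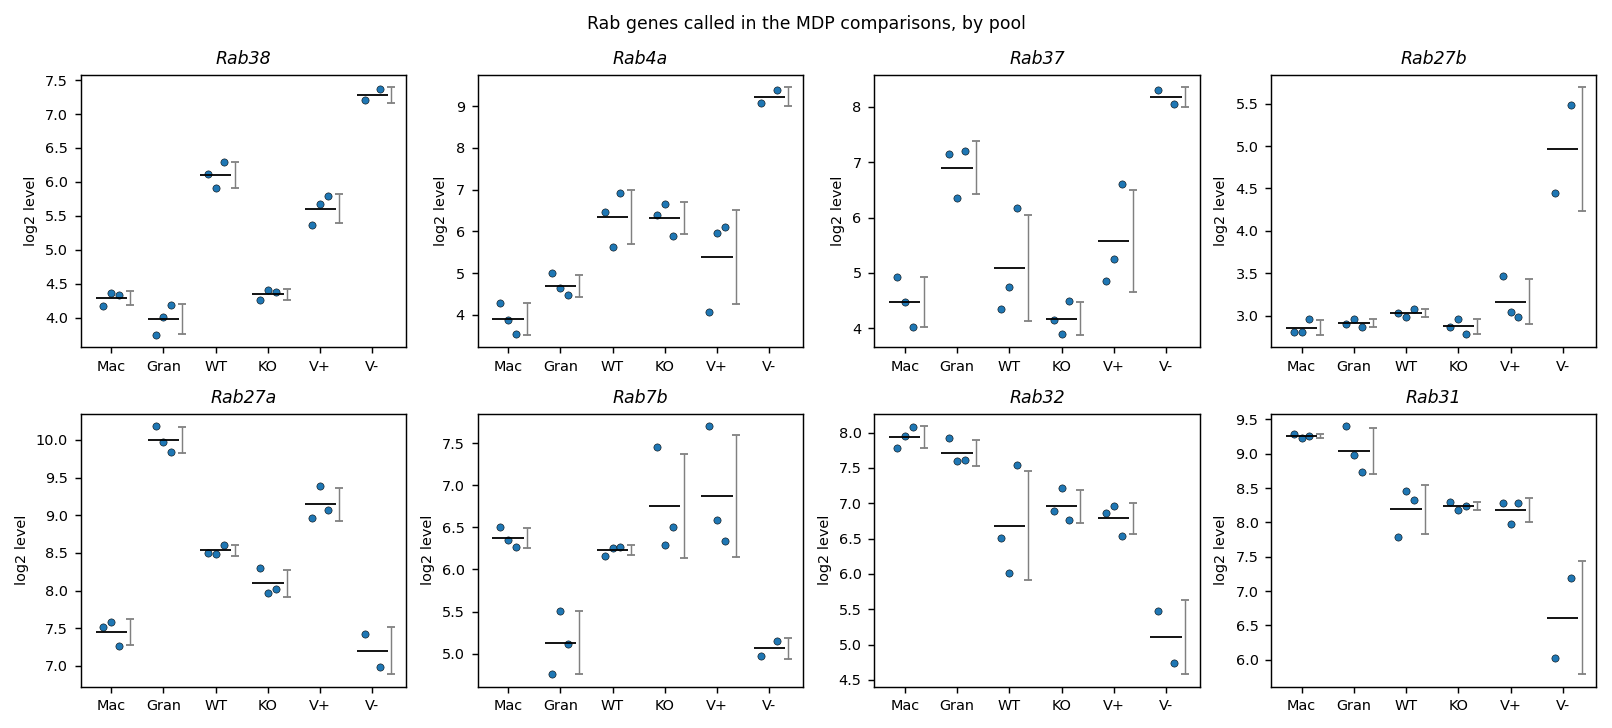
Log2 level by pool of 8 of the 9 Rab genes called between VENUS-negative (V-) and VENUS-positive (V+) MDPs, beside macrophages (Mac), granulocytes (Gran), wild-type (WT) and knockout-labelled (KO) MDPs; points are pools, black lines means and grey bars 1 SD either side. The 2 VENUS-negative pools lay above all other pools for Rab38, Rab4a, Rab37 and Rab27b, and below all other MDP pools for Rab27a, Rab7b, Rab32 and Rab31.

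The difference between both MDP comparisons was itself tested, as VENUS-negative minus VENUS-positive less knockout-labelled minus wild-type, on arrays that the comparisons do not share. It passed for 9 of the 55 Rab genes, 4 with a larger and 5 with a smaller value in the VENUS comparison, against 3.60% of all genes (1.74% and 1.86%). Rab38 had the smallest adjusted p of them, with a difference of 3.44 (SE 0.23, limma's adjusted p = 6.53e-07, 95% interval 2.95 to 3.92). For Rab4a the test gave 3.87 (SE 0.68, adjusted p = 0.00406), since its knockout-labelled pools (6.40, 6.65 and 5.89) lay among its wild-type pools (6.47, 5.63 and 6.91). Rab27a gave -1.51 (SE 0.24, adjusted p = 0.00199) and Rab27b 1.96 (SE 0.30, adjusted p = 0.00159). These 4 kept the call whichever single pool was left out. The other 5, Rab37, Rab7b, Rab32, Rab31 and Rab34, lost it in at least 1 such fit, and without VENUS-negative pool 1 the count was 5.

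**Figure D3:**
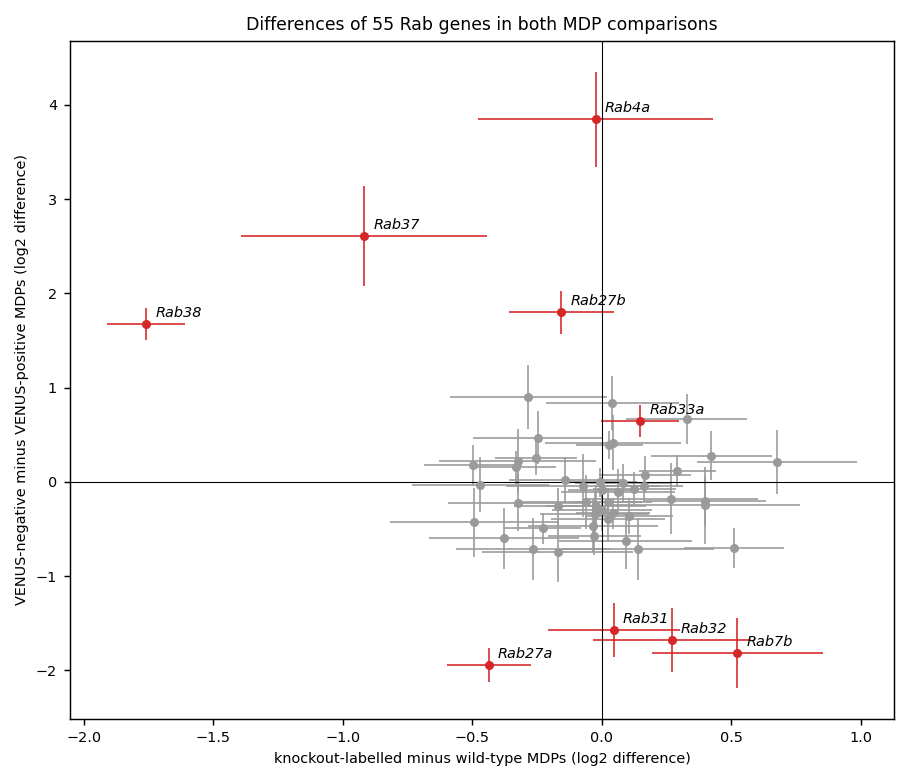
Difference of each of the 55 Rab genes between knockout-labelled and wild-type MDPs (horizontal axis) and between VENUS-negative and VENUS-positive MDPs (vertical axis), in log2 units, with limma's standard errors as bars; red points passed the test in the VENUS comparison. Rab38 lay farthest to the left, at -1.76, and at 1.68 on the vertical axis, while Rab4a lay at -0.02 and 3.85.

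Between VENUS-positive and wild-type MDPs, 0 of the 55 Rab genes passed limma's test, as did 0% of all genes. At an unadjusted p under 0.05 there were 7 Rab genes, and 1027 of all genes. The intervals of 47 of the 55 stayed within 2-fold, as did those of 14149 of all 17097 genes. Rab38 was at 5.61 in VENUS-positive and 6.10 in wild-type MDPs, a difference of -0.50 with a 95% interval of -0.82 to -0.18 (adjusted p = 0.527). Rab19 differed by 0.62 with an interval of 0.31 to 0.93 (adjusted p = 0.368), and Rab23, known from cilia and Hedgehog signalling, by 0.89 with an interval of 0.33 to 1.44 (adjusted p = 0.527).

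Spleen granulocytes and wild-type MDPs differed for 31 of the 55 Rab genes, against 45.2% of all genes, and 25 of the 31 were higher in granulocytes, against 22.0% of all genes called higher and 23.1% called lower. The median difference over the Rab genes was 0.36, against 0.10 over all genes. Early endosome genes were called in 4 of 7 cases, all higher in granulocytes, recycling genes in 7 higher and 2 lower of 11, and endoplasmic reticulum and Golgi genes in 5 of 13, all higher. Late endosome genes went both ways, with 4 higher and 4 lower of 11. Secretion genes were higher in 3 of 8. The early endosome count was 2 without granulocyte pool 1 or without wild-type pool 1, and the endoplasmic reticulum and Golgi count was 3 without wild-type pool 3. The wild-type MDP arrays also serve in the macrophage and knockout comparisons, so those values are not independent of these. In 13 of the 31 genes the call was lost in at least 1 fit without a single pool, and without wild-type pool 3 the count was 24.

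Among the late endosome genes, Rab20, a Rab of phagosome maturation, rose most. Granulocytes read 7.17, 6.26 and 6.89, wild-type MDPs 4.31, 4.67 and 4.40, and the difference was 2.31 (SE 0.26, 4.97-fold, limma's adjusted p = 4.09e-06). By group mean Rab38 was lowest in granulocytes, at 3.74, 4.01 and 4.19, and differed from wild-type MDPs by -2.12 (SE 0.15, limma's adjusted p = 4.82e-08). Rab9, which returns receptors from late endosomes to the Golgi, read 6.82, 6.18 and 5.98 in granulocytes against 7.60, 7.56 and 7.84, and differed by -1.34 (SE 0.23, limma's adjusted p = 2.76e-04). Rab7, the main Rab of the late endosome, was at 11.23, 11.10 and 10.69 against 10.31, 10.29 and 10.41 and differed by 0.67 (SE 0.15, adjusted p = 0.00204). Its pools did not overlap, but the step was less than 2-fold.

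The early endosome gene Rab5b rose by 1.59 (SE 0.30, limma's adjusted p = 5.98e-04), from 6.39, 5.95 and 5.55 in wild-type MDPs to 7.68, 7.39 and 7.60 in granulocytes, while its paralog Rab5c, at 7.16, 6.98 and 6.48 against 7.03, 6.52 and 7.06, overlapped and was not called. Rab5a rose by 0.72 (adjusted p = 0.0323) but lost the call in 5 of the 6 fits without a single pool. In the recycling list, Rab8a, a Rab of transport to the plasma membrane, read 8.69, 9.05 and 8.79 in granulocytes and 7.32, 6.85 and 7.49 in wild-type MDPs. The difference was 1.62 (SE 0.22, 3.07-fold, limma's adjusted p = 2.76e-05), with 0.17 and 1.15 in its other probe sets. The value of 0.17 came from a probe set near background in both groups (means 2.23 and 2.06). Rab8b rose by 1.06 (adjusted p = 5.82e-05), and its other probe set gave -0.27. Rab13, of cell junctions and the cell surface, read 7.16, 5.70 and 6.30 against 4.64, 4.68 and 5.33 and rose by 1.50 (adjusted p = 0.00366). Rab4a fell by 1.64 (SE 0.45, limma's adjusted p = 0.00871), from the wild-type values given above to 4.99, 4.63 and 4.48.

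Of the secretion genes, Rab37 read 7.16, 6.35 and 7.20 in granulocytes, above all wild-type MDP pools, and differed by 1.81 (SE 0.47, limma's adjusted p = 0.00615), or by 2.35 without wild-type pool 3 (adjusted p = 6.65e-04). Rab27a read 10.18, 9.98 and 9.84, the highest pools of the study, and differed by 1.47 (SE 0.16, limma's adjusted p = 3.45e-06), with 0.25 to 1.34 in its other 3 probe sets. Rab33b, which acts at the Golgi and in autophagosome formation, read 7.93, 8.07 and 8.75 in granulocytes against 6.28, 7.11 and 6.76 and rose by 1.53 (SE 0.29, adjusted p = 6.12e-04). NK cell markers (5 of 5 measured) averaged 7.02 to 8.01 in the granulocyte pools, against 4.78 to 5.11 in macrophages and 4.36 to 5.94 in wild-type MDPs. Gzma, Klrb1c and Ncr1 were higher in every granulocyte pool than in any pool of those groups. Nkg7, at 6.84 to 7.92 in granulocytes, overlapped with wild-type MDPs (6.86 to 8.56). Klrd1, at 6.33 to 7.23, overlapped with macrophages (6.66 to 7.17). The part of NK cell markers in the granulocyte values, Rab27a included, was not tested.

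Macrophages and wild-type MDPs differed for 18 of the 55 Rab genes, against 23.6% of all genes. Here 14 were higher in macrophages, against 11.4% of all genes called higher, and 4 lower, against 12.2%. The median difference was 0.125, against 0.00 over all genes. Those higher comprised 4 of 7 early endosome genes, 3 of 11 recycling genes, 4 of 11 late endosome genes and 3 of 13 endoplasmic reticulum and Golgi genes, and no secretion gene was higher. The early endosome count was 2 without macrophage pool 2 or without wild-type pool 3, each of which took away Rab5a and Rab5b. The call of 4 of the 18 was lost in a fit without a single pool, and the count without wild-type pool 3 was 15.

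Rab19, a Golgi-associated Rab, read 6.82, 7.11 and 7.11 in macrophages and 4.05, 4.33 and 4.47 in wild-type MDPs. The difference was 2.73 (SE 0.14, 6.62-fold, limma's adjusted p = 1.01e-08), and no pool of any other group exceeded 5.76. Rab43, of transport between endoplasmic reticulum and Golgi, read 7.15, 6.99 and 7.27 against 5.38, 5.41 and 4.85 and rose by 1.93 (SE 0.25, 3.80-fold, adjusted p = 4.64e-05), with 1.68 in its other probe set. Rab29, a Golgi and lysosome Rab that recruits the kinase LRRK2, lay at 8.36 in all 3 macrophage pools and at 6.36, 6.56 and 7.34 in wild-type MDPs. It rose by 1.60 (SE 0.21, 3.04-fold, limma's adjusted p = 5.03e-05), and by 1.90 without wild-type pool 3.

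Rab32 rose by 1.25 (SE 0.30, adjusted p = 0.00655), from 6.50, 6.01 and 7.54 to 7.78, 7.95 and 8.08, and by 1.68 without wild-type pool 3. Rab38 went the other way, at 4.17, 4.36 and 4.34, and fell by 1.81 (SE 0.15, limma's adjusted p = 7.64e-07). The pair thus differed from wild-type MDPs in opposite directions in macrophages, as it did in granulocytes, where Rab32 differed by 1.02 (adjusted p = 0.0133, and 0.0695 without wild-type pool 2). Among early endosome genes, Rab31 rose by 1.06 (adjusted p = 0.00613), from 7.79, 8.46 and 8.32 to 9.28, 9.23 and 9.25, and Rab22a, of endosomal sorting, by 1.02 (adjusted p = 0.00454). The other probe sets of Rab22a gave -0.38 to 1.15.

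Rab44 had the largest fall of this comparison. Macrophages read 6.57, 6.06 and 5.77, against 9.42, 9.58 and 9.19 in wild-type MDPs, and the difference was -3.26 (SE 0.23, 9.59-fold, limma's adjusted p = 1.86e-07). Every pool of the other 5 groups lay at 8.78 or above. Rab4a fell by 2.44 (SE 0.45, limma's adjusted p = 9.25e-04) to 4.29, 3.87 and 3.53, and its other probe set gave -0.97. Rab27a fell by 1.08 (SE 0.16, adjusted p = 1.51e-04) to 7.51, 7.58 and 7.26, with -1.36 to -1.11 in its other probe sets. Rab8b rose by 1.29 (adjusted p = 2.32e-05) from 8.64, 8.63 and 8.76 to 10.03, 10.00 and 9.88, but its other probe set gave -0.12. Dendritic cell markers (5 of 6 measured) averaged 7.54 to 7.79 in macrophages, against 4.32 to 4.60 in wild-type MDPs. Of these markers Xcr1 was near background in both groups, at 3.00 to 3.18 and 3.06 to 3.19. Granulocyte markers (7 of 9 measured) averaged 6.56 to 8.33 in macrophages, against 4.96 to 9.32 in wild-type MDPs and 12.34 to 12.54 in granulocytes. Of these Cxcr2 was lower in every macrophage pool (4.44 to 4.83) than in wild-type MDPs (4.93 to 5.23). The part of dendritic cell or granulocyte markers in the macrophage values was not tested.

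Set directly against each other, macrophages and granulocytes differed for 22 of the 55 Rab genes, against 31.2% of all genes. Of them 8 were higher in macrophages and 14 in granulocytes, where the rates over all genes were 18.4% and 12.8%. All 5 secretion genes called, of 8, were lower in macrophages, namely Rab44, Rab27a, Rab37, Rab3b and Rab3c. Without macrophage pool 1 there were 3, as Rab3b (adjusted p = 0.0562) and Rab3c (adjusted p = 0.0628) lost the call. Rab3c kept its call in 3 of 12 alternative fits. Recycling genes, with 1 higher and 3 lower of 11, were 1 and 1 without macrophage pool 2. Of the late endosome genes 4 were higher and 1 lower. The median difference was -0.11, against -0.09 over all genes, and 9 of the 22 calls were lost in a fit without a single pool.

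The largest difference was that of Rab44, at -3.44 (SE 0.23, 10.8-fold, limma's adjusted p = 7.83e-08), with granulocytes at 9.73, 9.54 and 9.45. Rab27a followed at -2.55 (SE 0.16, 5.85-fold, limma's adjusted p = 3.78e-08) and Rab37 at -2.42 (SE 0.47, 5.36-fold, limma's adjusted p = 0.00120). Their other probe sets gave -2.59 to -1.60 and -1.81. Rab6a, the Golgi Rab of transport back to the endoplasmic reticulum and out to the cell surface, read 7.79, 7.76 and 7.91 in macrophages and 9.72, 9.56 and 9.98 in granulocytes. It differed by -1.94 (SE 0.26, 3.82-fold, adjusted p = 5.66e-05), and its chosen probe set is of a type that can share probes with other transcripts, while its other 2 probe sets gave -1.45 and -1.12.

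Rab13 differed by -1.57 (SE 0.36, adjusted p = 0.00414) and Rab20 by -1.31 (SE 0.26, adjusted p = 0.00131), with macrophage pools of Rab20 at 5.40, 5.69 and 5.29. In the other direction Rab29 differed by 1.49 (SE 0.21, 2.80-fold, limma's adjusted p = 7.93e-05), from 7.10, 6.55 and 6.97 in granulocytes. Rab19 differed by 1.40 (SE 0.14, limma's adjusted p = 3.79e-06), with granulocytes at 5.76, 5.57 and 5.51, and so lay between wild-type MDPs and macrophages there. Rab9 and Rab7b were higher in macrophages by 1.26 (adjusted p = 7.65e-04) and 1.25 (adjusted p = 0.00969), and Rab18, of the endoplasmic reticulum and lipid droplets, by 1.20 (adjusted p = 0.00268).

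**Figure D4:**
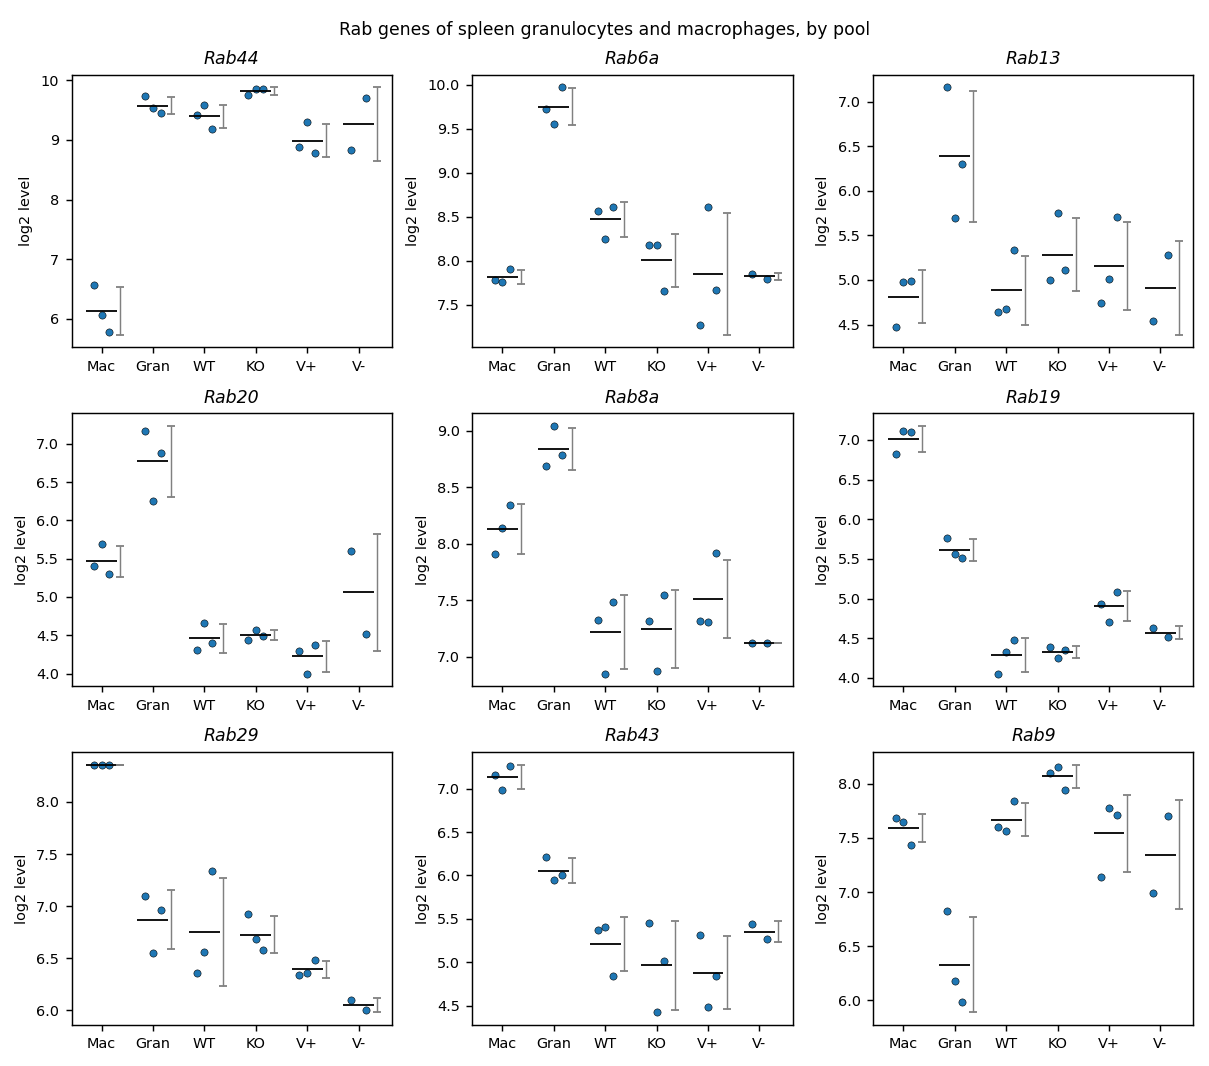
Log2 level by pool of 9 Rab genes that differed among macrophages (Mac), granulocytes (Gran) and wild-type MDPs (WT), beside knockout-labelled (KO), VENUS-positive (V+) and VENUS-negative (V-) MDPs; points are pools, black lines means and grey bars 1 SD either side. Rab44 was low in macrophages alone, at 5.77 to 6.57, Rab19, Rab29 and Rab43 were highest in macrophages, and Rab6a, Rab13, Rab20 and Rab8a were highest and Rab9 lowest in granulocytes by group mean.

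**Figure D5:**
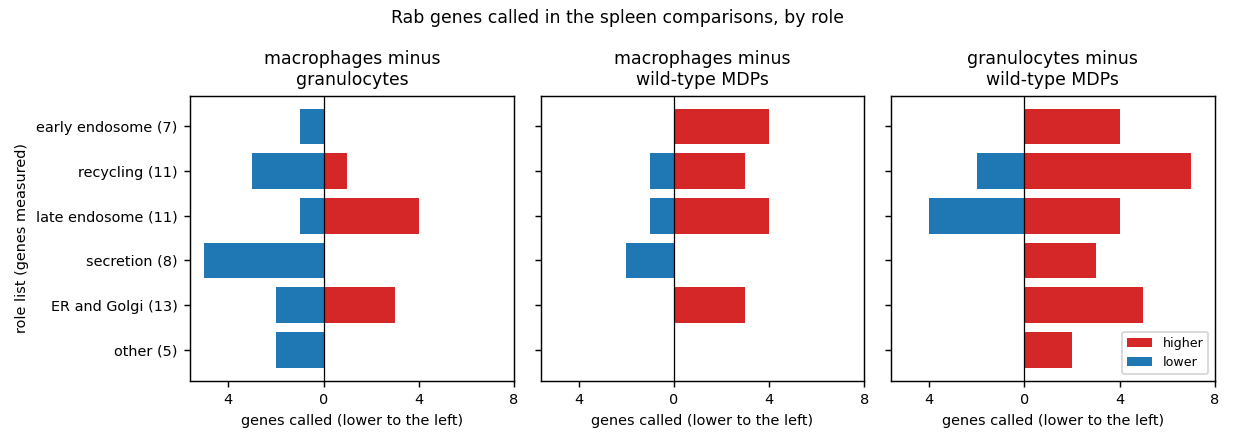
Number of Rab genes called higher (red, to the right) or lower (blue, to the left) in each role list, in the 3 comparisons of spleen cells; numbers in brackets are the genes measured in the list. Secretion genes were called 5 times lower and 0 times higher between macrophages and granulocytes (3 times lower without macrophage pool 1), and recycling genes 7 times higher and 2 times lower between granulocytes and wild-type MDPs.

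The machinery around the Rab proteins was read from 3 lists: 56 measured of 64 regulators (escort, prenylation and GDI proteins, exchange factors and GTPase-activating proteins), 46 of 53 effectors and 26 of 30 subunits of tethering complexes. Between knockout-labelled and wild-type MDPs, 0 regulators (2 at an unadjusted p under 0.05 in limma's test), 1 effector and 0 tether subunits (also 2 at that level) were called, against 0.907% of all genes. The effector was Rab11fip5, an adaptor of Rab11 on recycling endosomes, at 8.96 against 7.82 (difference 1.14, SE 0.23, limma's adjusted p = 0.031). It lost the call without any 1 of the 3 wild-type pools or knockout-labelled pool 1 or 2, with an adjusted p of up to 0.115.

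Between VENUS-negative and VENUS-positive MDPs, 2 regulators were higher and 3 lower, 4 effectors were higher and 1 lower, and 0 of the 26 tether subunits were called in limma's test (4 at an unadjusted p under 0.05). That is 8.93% of the regulators and 10.9% of the effectors, against 5.87% of all genes. Of the effectors 0 were called without VENUS-negative pool 1, 1 without pool 2, and 3 without VENUS-positive pool 1 or 2, and of the regulators 2 without VENUS-positive pool 1. A tether subunit was called without VENUS-positive pool 3 or VENUS-negative pool 2. Rabgef1, the exchange factor of Rab5 known as rabex-5, rose by 1.32 (SE 0.19, limma's adjusted p = 5.40e-04), and Tbc1d5, a GTPase-activating protein for Rab7, fell by 1.15 (SE 0.19, adjusted p = 0.00168). Both kept the call without any single pool. The other 8 did not, among them the exchange factor Rin2 (-1.44), the GTPase-activating protein Tbc1d16 (-1.29), and the effectors Micall2 (1.68), Inpp5b (1.45), Mical1 (-1.14) and Ocrl (1.13). Each of these named genes lost it without VENUS-negative pool 1, and likewise without pool 2.

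In the spleen the counts of called partners were larger, as were those over all genes. Granulocytes had 20 regulators higher and 8 lower than wild-type MDPs, 15 effectors higher and 6 lower, and 1 tether subunit higher and 8 lower. These were 50% of the regulators, 45.7% of the effectors and 34.6% of the tether subunits, against 45.2% of all genes. Without wild-type pool 1 the tether subunits were 1 higher and 4 lower. Dennd4a, an exchange factor of Rab10, rose by 3.49 (SE 0.25, limma's adjusted p = 4.61e-08), Dennd3, of Rab12, by 3.27 (SE 0.35, adjusted p = 2.59e-06), and Dennd1c, of Rab35, by 2.95 (SE 0.24, adjusted p = 1.71e-07). The kinase gene Lrrk2, near background in wild-type MDPs at 3.56, was at 7.53 in granulocytes and 6.74 in macrophages. Rab11fip1, an adaptor of Rab11, rose by 3.43 (SE 0.23, adjusted p = 3.18e-08), while Exoc4, a subunit of the exocyst that tethers vesicles at the plasma membrane, fell by 2.08 (SE 0.21, adjusted p = 1.75e-06).

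Macrophages had 11 regulators higher and 2 lower than wild-type MDPs, 8 effectors higher and 3 lower, and 1 tether subunit each way. These were 23.2%, 23.9% and 7.69% of the lists, against 23.6% of all genes. The tether subunits were Exoc3 and Exoc4, both lost without wild-type pool 1, and Exoc4 was also lost without macrophage pool 1 or 2 or wild-type pool 3. The GTPase-activating protein gene Tbc1d9 stood at 7.79 in macrophages, 4.41 in granulocytes and 3.82 in wild-type MDPs, and differed from granulocytes by 3.38 (SE 0.31, limma's adjusted p = 1.22e-06). Rabgap1l fell by 3.09 (SE 0.23, adjusted p = 2.38e-07) from wild-type MDPs to macrophages, and Rin2 rose by 2.40 (SE 0.32, adjusted p = 6.05e-05). Against granulocytes, macrophages had 10 regulators higher and 13 lower, 5 effectors higher and 11 lower, and 7 tether subunits higher and 0 lower. These were 41.1%, 34.8% and 26.9% of the lists, against 31.2% of all genes. Of the 7 tether subunits 3 lost the call in a fit without a single pool, and the count was 4 without macrophage pool 3 or without granulocyte pool 3. Tbc1d10c, a GTPase-activating protein for Rab35, differed by -3.66 (SE 0.27, adjusted p = 1.84e-07), Dennd3 by -3.35 (SE 0.35, adjusted p = 4.39e-06), Rab11fip1 by -2.76 (SE 0.23, adjusted p = 5.92e-07), and Exoc4 by 1.37 (SE 0.21, adjusted p = 1.73e-04). Unc13d, which primes granules bound by Rab27a for fusion, differed by -1.37 (SE 0.16, adjusted p = 1.18e-05).

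Several probe sets of a gene did not always point the same way. Of the called Rab genes with more than 1 probe set, the sign differed in another probe set for 0 of 5 in the VENUS comparison. It differed for 2 of 16 between granulocytes and wild-type MDPs (Rab8b and Rab21). Between macrophages and wild-type MDPs it differed for 3 of 8 (Rab8a, Rab8b and Rab22a), and between macrophages and granulocytes for 1 of 12 (Rab3c). The opposing probe sets of Rab8a (means 1.95 and 2.06) and Rab3c (2.314 and 2.308) were near background, so their signs carry little weight. The chosen probe set carried the suffix of probes shared between transcripts of different genes for 2 genes, Rab4a and Rab24, and that of partly matching probes for 1, Rab6a, and their values can include other transcripts.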

How the data were processed

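Gene expression was measured on 17 Affymetrix arrays. The authors deposited log2 values from RMA in Affymetrix Expression Console, per the submitters' processing notes. RMA corrects background, quantile-normalizes arrays and summarises probes into probe sets, so a shift of all genes on an array would be removed. The sources used here give no version, no genome build of the array design and no list of arrays normalized as 1 set.

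Of 45037 probe sets, 28898 had 1 gene symbol in the platform annotation, 551 had several and 15588 had none. Those with 1 symbol covered 17097 genes. A gene was read from its probe set of highest mean level, with no filter on low signal.

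limma 3.58.1 in R 4.3.3 (lmFit, eBayes, two-sided) fitted 6 group means to all 17 arrays, with 11 residual and 3.21 prior degrees of freedom. The Benjamini-Hochberg method ran over all 17097 genes, with calls at an adjusted p under 0.05. Pools are the replicates, so a p-value reflects their spread only, and precision is limited by how few arrays there are. The fit was tested on simulated data. Called genes are named pool by pool for up to the 8 largest differences of a comparison, and of each partner list up to 4 called genes per comparison. Further Rab genes were added for their role after their values were seen. The Rab genes, role lists and partner lists were chosen with earlier results of these data known, so no list is independent support. Alternatives were a fit of both groups alone, the pool number as a block, a filter at log2 5 on at least 2 arrays, median centring, eBayes with a trend, the mean of all probe sets and leaving out each pool. Promoter sequences are RefSeq's, by symbol.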

Additional observations from a re-analysis of the deposited data

Results flagged for a closer look

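For 9 Rab genes the VENUS comparison (VENUS-negative minus VENUS-positive MDPs) and the knockout comparison (knockout-labelled minus wild-type MDPs) gave log2 differences that differed from each other, by limma's contrast of both, adjusted over all genes. The value given is the VENUS difference minus the knockout difference. It was larger in the VENUS comparison for Rab4a (3.87), Rab37 (3.53), Rab38 (3.44) and Rab27b (1.96). It was smaller for Rab7b (-2.34), Rab32 (-1.95), Rab31 (-1.62), Rab27a (-1.51) and Rab34 (-1.21). Rab38 was the gene called in both comparisons, with opposite signs. Rab34 was called in neither, at 0.51 in the knockout and -0.70 in the VENUS comparison, and its value was -0.58 (adjusted p = 0.39) with the mean of its probe sets.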

How the results depend on the processing

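No called Rab gene changed sign under any alternative that was run. The pool number as a replicate block, in fits of both groups alone, left 0 Rab genes called in the knockout comparison, where Rab38 had an adjusted p of 0.0941, and 1 in the VENUS comparison, where the fit of both groups without the block gave 4. Same-numbered pools correlated at -0.05 to 0.12 in their deviations from the group means, so the numbers were not taken as pairs. In the spleen comparisons the block gave 19, 22 and 23 Rab genes, against 22 (macrophages and granulocytes), 18 (macrophages and wild-type MDPs) and 31 (granulocytes and wild-type MDPs). Leaving out 1 pool at a time gave 5 to 12 Rab genes in the VENUS comparison and 5 to 9 for the difference between both MDP comparisons. Median centring, eBayes with a trend, the filter on low values and the mean of all probe sets kept the counts of all 8 tests within 1.5 times. The VENUS-negative group has 2 pools, and genes near background can be compared only in direction.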
